A study of Mus musculus with 23 samples.

Results

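RNA bound to tagged ribosomes of ChAT-Cre cells was compared between GarsC201R mutant and wild-type mice. The comparison comprises the 11 libraries whose source label names both the tagged ribosomal protein and ChAT-Cre, 6 of them mutant (mutant Cre) and 5 wild type (wild-type Cre), out of 23 libraries in the series. Spinal cords were taken at 2 weeks of age from mice of the strain background B6.CgxB6.129. All 11 carried the Rpl22 allele that Cre switches to a haemagglutinin-tagged form (Rpl+/-) and the Cre allele (Chat+/-), and they differed in the Gars allele (C201R+/- in mutants, C201R+/+ in wild type). The other 12 libraries came from mice without Cre (Chat+/+) that also carried Rpl+/-, 6 of them C201R+/- and 6 C201R+/+, and give the background of the anti-haemagglutinin precipitation. ChAT-Cre acts in all cholinergic cells and not in motor neurons alone, so each library averages over the cholinergic cells of a cord and any RNA carried along. The series places the age before disease onset in the mutants.

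Gars encodes glycyl-tRNA synthetase, which joins glycine to its tRNA, and C201R is a dominant mouse allele used as a model of Charcot-Marie-Tooth neuropathy, a disease of peripheral motor and sensory axons. Cells that run short of charged tRNA, or whose ribosomes stall, can activate the kinase GCN2 (Eif2ak4), which phosphorylates the initiation factor eIF2alpha. General translation then slows while that of the transcription factor ATF4 increases, and ATF4 with its partners CHOP (Ddit3) and C/EBP proteins drives genes for amino acid synthesis, amino acid uptake, one-carbon metabolism, feedback and secreted hormones. This programme is called the integrated stress response, and the gene lists below follow its parts.

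The libraries held 9031654 to 13636772 expected counts in wild-type Cre and 11696397 to 14511394 in mutant Cre, of which 1.21 to 4.47 M (mega) and 2.93 to 6.24 M counts remained outside ribosomal RNA-like models. Chat, the enzyme of acetylcholine synthesis, was higher in every Cre library than in every no-Cre library of its genotype (lowest Cre value 39.1 against a highest no-Cre value of 6 CPM in wild type, and 13.9 against 8.21 in mutants, with all 23 libraries scaled together). Values below are counts-per-million of TMM-scaled library size (CPM) within the 11 Cre libraries unless stated. Gars itself (chromosome 6, 55038007 to 55079500) stood at 104, 57.2, 79.4, 83.8 and 92.6 CPM in wild-type replicates 1 to 5 and between 70.7 and 152 with a median of 100 in mutants. The groups overlapped and the difference was 0.26 on the log2 scale (SE 0.22, adjusted p = 0.532); a missense allele need not alter RNA level, and the files do not separate the alleles. Rpl22, the tagged protein, differed by 0.18 (SE 0.20, adjusted p = 0.658), with overlapping groups.

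Markers of other cells differed between libraries of the same group. The mean of the 14 oligodendrocyte markers, as log2(CPM + 1), was 3.93, 6.02, 3.99, 3.69 and 3.98 in wild-type replicates 1 to 5, and 5.53, 3.96, 4.05, 6.92, 4.50 and 7.39 in mutant replicates 1 to 6. Wild-type replicate 2 and mutant replicates 4 and 6 were therefore the richest in glial RNA, and the same 3 libraries had the highest astrocyte means (4.51, 5.35 and 5.63). Summed over the list, oligodendrocyte markers ranged from 817 to 4256 CPM in wild type and from 1176 to 10876 in mutants, and astrocyte markers from 434 to 722 and from 384 to 1310. In bulk precipitates fewer cells of a type and less RNA per cell cannot be told apart. Results are given with and without these 3 libraries where they matter. Mutant replicate 1, next in oligodendrocyte mean (5.53), is not among them and was kept. Whether the libraries stem from different animals is not stated in the labels, and p-values therefore reflect variation among libraries, which may be technical.

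With edgeR's quasi-likelihood test and a Benjamini-Hochberg adjusted p under 0.05, 41 of 12399 genes tested (0.331%) were called, 29 higher in mutants (0.234%) and 12 lower (0.0968%). The groups did not overlap for 28 of the 29 and for 11 of the 12, against 139 (1.12%) and 119 (0.96%) of all genes tested that were apart in each direction. Ddit3 and Ier3 were the called genes whose groups overlapped. At an unadjusted p under 0.05 there were 2113 genes, and the median difference of all genes was 0.06 on the log2 scale. Each of the 41 genes kept its direction within both title numbers that occur in both groups (20302 and 20401, the leading numbers of the library titles, whose meaning the labels do not give) and in every alternative fit that tested it. The genes were picked by their p in these same libraries. Separation of the groups and a kept direction therefore follow in part from the selection and are no independent support. The 29 higher genes and the 12 lower ones were all called again without wild-type replicate 2, and again without that library and mutant replicates 4 and 6. These 2 fits called 1057 and 1285 genes, so the repeated calls are no independent support either. With the title number as a replicate block 16 of the 29 and 1 of the 12 were called. With glial content as a covariate 28 and 7 were. With scaling by library totals alone, which shifted the median of all genes to 0.79, 17 of the 29 and 0 of the 12 were called.

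**Figure D1:**
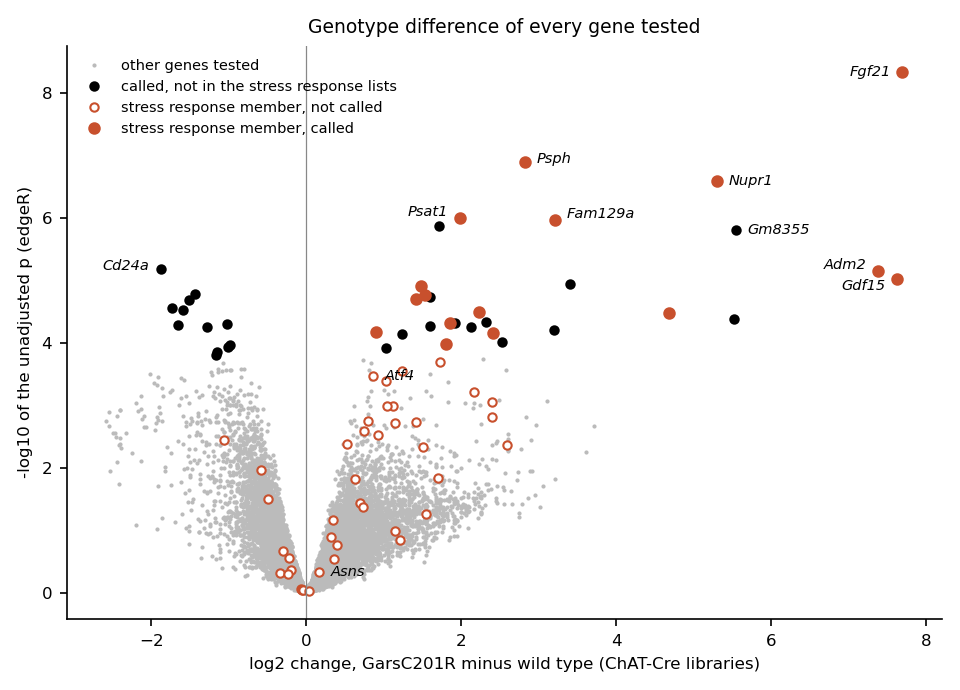
Each point is 1 of 12399 genes, with the log2 difference (mutant minus wild type, ChAT-Cre libraries) on the x axis and -log10 of the unadjusted p on the y axis. The 29 genes called higher extend to a log2 difference of 7.69 for Fgf21, and the 12 called lower extend to -1.88 for Cd24a.

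The number of calls rested on single libraries. Leaving out wild-type replicate 2 raised it to 1057, 423 higher (3.38% of 12531) and 634 lower (5.06%). Leaving out that library and mutant replicates 4 and 6, the 3 glia-rich ones, gave 523 higher (4.43% of 11819) and 762 lower (6.45%). This setting was chosen after seeing the data, and list counts without these libraries are to be read against those shares. Wild-type replicate 2 had 50.6% of its counts in ribosomal RNA-like models and 4.47 M outside them. The other wild-type libraries had at least 78.2% and at most 2.83 M, and mutants at most 75.3% and at least 2.93 M. Without wild-type replicate 2 the genotypes were therefore also apart in depth and in ribosomal RNA-like share. The part of glial RNA, depth and this share in the calls gained was not tested, here or below. With 1 library left out the number was 17, 10, 22 and 22 without wild-type replicates 1, 3, 4 and 5, and 38, 34, 19, 29, 16 and 37 without mutant replicates 1 to 6. Fgf21, Psph, Nupr1, Psat1, Fam129a, Cdkn1a, Adm2, Cd24a and the gene model Gm8355 were called in each of the 11 omissions. Gdf15 was called in the 6 omissions in which it passed the filter on low counts, and the filter removed it without any 1 of mutant replicates 1 to 5.

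The 6 lists that make up the stress response held 65 genes, of which 57 passed the filter on low counts. Of these 57, 16 rose and 0 fell at the threshold, 25 were apart with mutants higher and 1 with mutants lower, and 46 had a positive difference. Their median was 1.12 on the log2 scale against 0.06 for all genes tested. Of all 12399 genes tested, 0.234% were called higher and 0.0968% lower. Groups were apart with mutants higher in 1.12% and with mutants lower in 0.96%, and 6774 genes had a positive difference. List counts from the test of all 11 libraries are to be read against these shares. The lists were chosen with earlier results of these data known, so these counts and medians describe the lists and do not test them. The mean of all 65 genes, including those below the filter, as log2(CPM + 1), was 2.54, 2.61, 2.49, 2.40 and 2.49 in wild-type replicates 1 to 5 and 3.27, 3.27, 3.54, 3.31, 3.47 and 3.24 in mutant replicates 1 to 6. Every mutant library was above every wild-type library, and of the glia-rich mutant replicates 4 (3.31) and 6 (3.24) the latter was the lowest mutant. Without the 3 glia-rich libraries 34 of the 57 members were called higher and 2 lower, against 4.43% and 6.45% of all genes in that setting.

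The 3 secreted hormones were at or near 0 in wild type and present in every mutant library. Fgf21, a fibroblast growth factor that signals metabolic stress to other organs (chromosome 7, 45613886 to 45615490), stood at 0, 0, 0.24, 0 and 0.165 CPM in wild-type replicates 1 to 5, and between 7.97 and 31.4 with a median of 14.3 in mutants. That is 3 counts against 1713, a ratio of 230 (exact interval at a confidence level of 95%, counting error only, 78.5 to 1115), and an adjusted p of 5.68e-05. Mutant replicate 3 was the highest library and mutant replicate 4 the lowest, and the difference within title numbers 20302 and 20401, as log2(CPM + 0.5), was 4.37 and 5.59.

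Gdf15, a stress hormone of the TGF-beta family that reduces feeding, had 0 counts in all 5 wild-type Cre libraries and 0.649 to 2.59 CPM (median 1.96) in mutants. With 202 counts in mutants it was at least 27.1-fold higher, set against a floor of 3 counts over the wild-type group (adjusted p = 0.0118). Adm2, a peptide of the calcitonin family, also had 0 counts in wild type and 0.926 to 2.11 CPM (median 1.4) in mutants, at least 21.6-fold higher from 161 counts (adjusted p = 0.00988). With 0 wild-type counts, Gdf15 and Adm2 passed the filter on low counts through mutant libraries alone. Their adjusted p is therefore no independent support. Of the 3 hormones 1 was called with DESeq2, 1 in the fit of all 23 libraries and 2 with the title number as a replicate block. Per length, on the authors' deposited TPM scale, the mutant medians were 32.5 for Fgf21, 2.55 for Gdf15 and 2.71 for Adm2, and Fgf21 was above both others in 6 of 6 mutant libraries.

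The 3 hormones differed in the no-Cre precipitates. Adm2 had 0 counts in all 12. Fgf21 had 9, 4, 8, 15, 0 and 5 counts in mutant no-Cre replicates 1 to 6 and 3 counts in total in wild-type no-Cre. Gdf15 had 82 counts in mutant no-Cre replicate 4 and 0 in the other 5, beside 1 count each in wild-type no-Cre replicates 1 and 5. With all 23 libraries scaled together, mutant no-Cre replicate 4 stood at 17.7 CPM of Gdf15. That was above every mutant Cre library (0.439 to 1.84 CPM). The genotype effect without Cre was 4.55 for Fgf21 (adjusted p = 0.383), and the difference between its effects with and without Cre was not called (3.06, adjusted p = 0.524).

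Serine, glycine and one-carbon enzymes had 3 of 10 tested members called higher, 0 lower, 4 apart and a median of 1.28. Serine is made from a glycolytic intermediate by Phgdh, Psat1 and Psph in turn, and Shmt2 turns serine into glycine in mitochondria. Psat1 (chromosome 19, 15904678 to 15947337), the aminotransferase, stood at 23.7, 24.2, 15.5, 9.22 and 17.9 CPM in wild-type replicates 1 to 5 and at 51 to 85 (median 75.9) in mutants. The lowest mutant library was above the highest wild-type library, and Psat1 rose by 1.98 (SE 0.25, adjusted p = 0.0027).

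Psph, the phosphatase that completes serine synthesis (chromosome 5, 129765558 to 129787449), stood at 3.8, 2.37, 2.88, 0.879 and 2.14 CPM in wild type against 12.5 to 21.9 (median 15.5) in mutants. It rose by 2.82 (SE 0.30, adjusted p = 0.000805), with no overlap and differences of 2.28 and 2.56 within the 2 shared title numbers. Shmt2 stood at 5.26, 4.8, 7.31, 7.47 and 9.87 CPM in wild type and at 14.2 to 24 (median 17) in mutants. It rose by 1.41 (SE 0.23, adjusted p = 0.0148), and the call was lost without wild-type replicate 1 or 3 (adjusted p up to 0.0619).

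The other members were less even. Phgdh, the first enzyme of serine synthesis, stood at 7.31, 5.51, 0.479, 0.549 and 2.14 CPM in wild type and at 6.16 to 32.4 (median 13.1) in mutants, with overlapping groups and a difference of 2.39 (SE 0.62, adjusted p = 0.106). Its highest mutant values, 21.8 and 32.4, were in the glia-rich replicates 4 and 6, and its median was 6.63 CPM in wild-type no-Cre and 1.48 in wild-type Cre (23 libraries scaled together). Without the 3 glia-rich libraries its difference was 2.33 (adjusted p = 0.023). Mthfd2, the mitochondrial one-carbon dehydrogenase, stood at 5.56 to 10.3 CPM in wild type and at 5.84 to 21.3 in mutants, of which glia-rich replicate 6 was lowest (difference 1.15, adjusted p = 0.11, and 0.00233 without the 3 glia-rich libraries). Aldh1l2, which oxidises the mitochondrial formyl-folate, was apart at 1.72 (adjusted p = 0.0566). Mthfd1l, Mthfd1, Mthfd2l and the folate carrier Slc25a32 had differences of 0.36, -0.20, 0.03 and -0.04, and Shmt1, the cytosolic partner of Shmt2, did not pass the filter.

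Among 12 enzymes of asparagine, proline and other amino acids, 2 were called higher, both of proline synthesis, and the median was 0.57. Aldh18a1, which reduces glutamate in the first step, stood at 4.09, 7.34, 3.95, 4.28 and 4.61 CPM in wild type and at 9.55 to 17.3 (median 13.9) in mutants. Its groups did not overlap, and it rose by 1.48 (SE 0.23, adjusted p = 0.0129, or 0.0619 without wild-type replicate 3). Pycr1, which completes proline in mitochondria, stood at 1.17, 0.888, 1.68, 0.769 and 1.97 CPM against 3.07 to 8.9 (median 6.33). It rose by 2.23 (SE 0.38, adjusted p = 0.0193), and 5 of 11 omissions (mutant replicates 3 and 5, wild-type replicates 1, 3 and 4) ended the call, with an adjusted p up to 0.0708.

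Asns, the asparagine synthetase and a textbook ATF4 target, differed from these. It stood at 50.6, 33.2, 44.2, 48.2 and 49 CPM in wild type and at 26.4 to 65.4 (median 54.1) in mutants, with overlapping groups and a difference of 0.16 (SE 0.21, adjusted p = 0.706). Without the 3 glia-rich libraries, 2 of which were the lowest mutants for Asns, the difference was 0.28 (adjusted p = 0.205). Chac1, which degrades glutathione, was apart at 1.24 (adjusted p = 0.0621), Cth of cysteine synthesis differed by 2.59 (SE 0.76, adjusted p = 0.141), and Gpt2, an alanine aminotransferase, by 0.75 (adjusted p = 0.122). Of the other members, Cbs, Ass1, Glul, Bcat1 and Got1 lay between -0.49 and 1.21, none with an adjusted p under 0.261.

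Amino acid transporters had 3 of 11 tested members called higher, 7 apart with mutants higher, and a median of 1.15. Slc7a5 and Slc3a2 are the light and heavy chains of one exchanger for large neutral amino acids. Slc7a5 stood at 14.9, 26.8, 8.51, 9.22 and 7.24 CPM in wild type, with the glia-rich replicate 2 highest, and at 36.3 to 72.7 (median 47.2) in mutants; it rose by 1.86 (SE 0.33, adjusted p = 0.0232). Slc3a2 stood at 46.5, 31.8, 34.5, 29 and 32.6 CPM against 56 to 81.2 (median 62.4) and rose by 0.90 (SE 0.16, adjusted p = 0.0258). Neither pair of groups overlapped.

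Slc7a1, the carrier of arginine and lysine, stood at 17.5, 18.6, 18, 14.4 and 15.6 CPM in wild type and at 26.3 to 74.9 (median 49.9) in mutants. It rose by 1.53 (SE 0.24, adjusted p = 0.0148), and the mutant libraries nearest to wild type were the glia-rich replicates 6 and 4 (26.3 and 31.4). These 3 calls were lost in 4 (Slc7a1), 6 (Slc7a5) and 6 (Slc3a2) of 11 omissions, wild-type replicates 3, 4 and 5 among them each time, with an adjusted p up to 0.107. The others were wild-type replicate 1 (Slc7a1 and Slc7a5), mutant replicates 3 and 5 (Slc7a5 and Slc3a2) and mutant replicate 4 (Slc3a2). The cystine carrier Slc7a11 (2.16), the arginine carrier Slc7a3 (2.40), the neutral amino acid carrier Slc1a4 (1.12) and Slc38a1 (0.52) were apart at adjusted p from 0.0853 to 0.141. Slc7a6 was apart in the other direction (-1.06, adjusted p = 0.136), Slc6a9, Slc38a7 and Slc38a2 overlapped (1.51, 1.15 and 0.32), and Slc1a5 and Slc43a1 did not pass the filter.

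Transcription factors and feedback genes followed, with 3 of 9 tested members called higher and a median of 0.80. Nupr1, a small stress-induced chromatin protein (chromosome 7, 126623249 to 126630861), stood at 0, 0.296, 0, 0.11 and 0 CPM in wild type and at 3.32 to 8.82 (median 4.48) in mutants. Mutant replicate 3 was highest, as for Fgf21, and the 6 counts in wild type against 550 in mutants gave a ratio of 36.9 (95% interval from counting error 16.8 to 101; adjusted p = 0.00108). Ddit3, which encodes CHOP, stood at 1.46, 0.947, 0.719, 1.87 and 3.46 CPM in wild type and at 3.34 to 13.3 (median 8.82) in mutants. Its groups overlapped through mutant replicate 6, which was below wild-type replicate 5, and it rose by 2.41 (SE 0.44, adjusted p = 0.0259).

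Atf5, a factor that ATF4 induces, stood at 0.877, 1.89, 1.68, 3.18 and 3.95 CPM against 5.3 to 10.9 (median 8.42) and rose by 1.80 (SE 0.34, adjusted p = 0.0363, or 0.0511 with glial content as a covariate). The calls were lost in 6 of 11 omissions for Ddit3 (mutant replicates 2, 3 and 5, wild-type replicates 1, 3 and 4) and in 8 for Atf5 (all but wild-type replicates 2 and 5 and mutant replicate 2), with adjusted p up to 0.0957 and 0.13. Atf4 itself stood at 37.4, 21.7, 40.9, 34.8 and 38.2 CPM in wild type and at 53.3 to 81.6 (median 58.8) in mutants. Its groups were apart, with a difference of 0.86 (SE 0.18) that missed the threshold at an adjusted p of 0.0678, and reached 0.00653 without the 3 glia-rich libraries. Ppp1r15b, a subunit of the eIF2alpha phosphatase, was apart at 0.80 (adjusted p = 0.11), while Ppp1r15a, Cebpg, Cebpb and Jdp2 overlapped (0.73, 0.69, -0.34 and -0.06). Atf3 and Trib3 did not pass the filter.

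The list of growth brake, redox and autophagy targets had 2 of 12 tested members called higher, 4 apart and a median of 1.03. Fam129a, a translation-linked stress protein also called Niban, stood at 0.292, 1.12, 0.839, 0.329 and 0.329 CPM in wild type and at 4.31 to 8.72 (median 5.31) in mutants, and rose by 3.21 (SE 0.40, adjusted p = 0.0027). Cdsn, known as an adhesion protein of skin, stood at 0.585, 0.118, 0, 0.22 and 0 CPM against 0.862 to 7.09 (median 3.28), that is 6 counts against 429 (ratio 28.8, 95% interval 13.1 to 78.8; adjusted p = 0.0193). Neither overlapped between groups; the Cdsn call was lost in 5 of 11 omissions (mutant replicates 3 and 5, wild-type replicates 3, 4 and 5), with an adjusted p up to 0.077. Vegfa, the vascular growth factor (1.03, adjusted p = 0.0745), and Vldlr, a lipoprotein receptor (1.04, adjusted p = 0.0916), were apart. Sesn2, which restrains the growth kinase mTORC1, differed by 1.42 (adjusted p = 0.11), Ero1l by 0.92, Stc2 by 1.70, Txnip by 1.55 and Ddit4 by 0.63, and the autophagy genes Sqstm1, Map1lc3b and Gabarapl1 by -0.59, 0.34 and -0.22, all overlapping. Eif4ebp1, Osgin1 and Soat2 did not pass the filter.

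**Figure D2:**
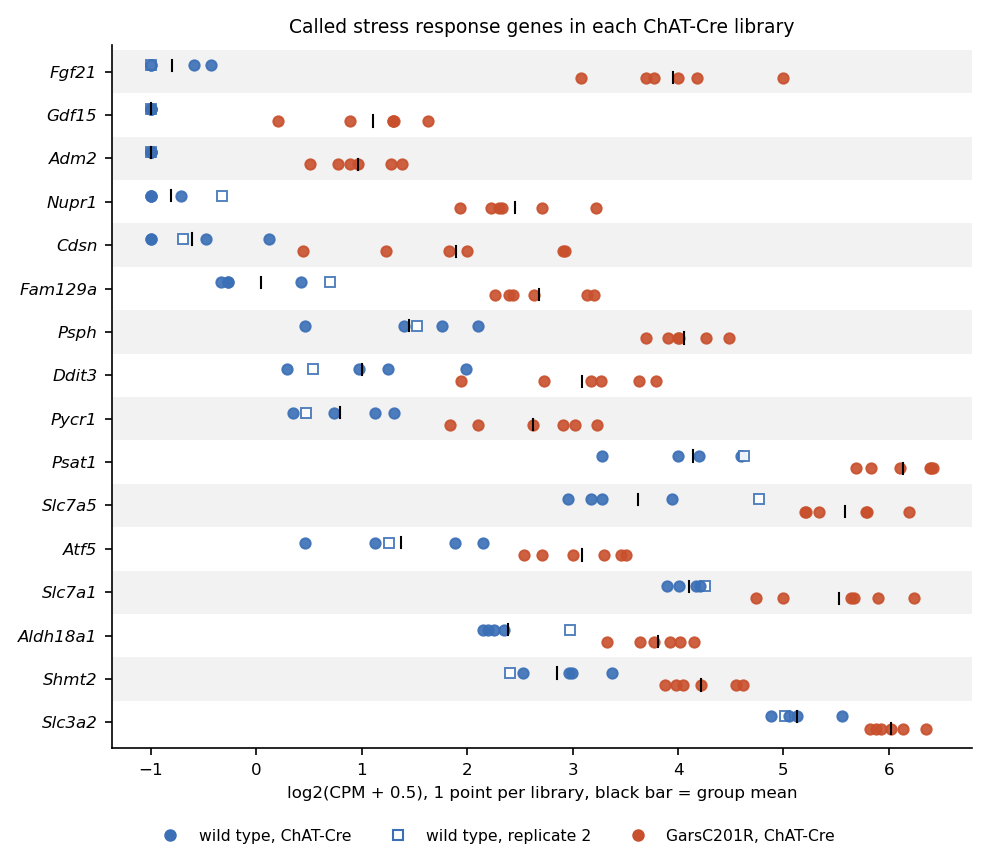
Values of the 16 stress response genes called higher, as log2(CPM + 0.5) on the x axis, with 1 point for each of the 5 wild-type and 6 mutant Cre libraries, the group mean as a black bar and wild-type replicate 2, the glia-rich wild-type library, as an open square. Mutants lie above every wild-type library for 15 genes, and for Ddit3 the lowest mutant (3.34 CPM) is below the highest wild-type library (3.46 CPM).

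ATF4 binds composite elements of the form TGATGNAA with C/EBP partners, so the promoters of these genes were searched for those 8 letters on both strands (TTNCATCA on the other), in windows from 250 bases before to 50 bases after the annotated start in the RefSeq promoter table (GRCm38.p6). Among the 29 genes called higher, 26 matched the table and 4 held the letters (15.4%), namely Fgf21, Nupr1, Pycr1 and Arl14ep, and 0 of 8 matched genes called lower did. For comparison the letters occurred in 254 of 9633 matched genes tested (2.64%) and in 1304 of all 32851 windows (3.97%). Within the 6 stress lists they occurred in 3 of 15 matched members called higher (20%) and in 7 of 34 members tested and not called (20.6%). These shares describe letters in a window, and whether a factor binds there was not tested. Shown 5′ to 3′ on the strand of the gene, with the match in capitals, are 3 called genes and 3 of the same lists that were not called, Chac1 and Slc7a11, whose groups were apart, and Asns, whose groups overlapped.
Fgf21: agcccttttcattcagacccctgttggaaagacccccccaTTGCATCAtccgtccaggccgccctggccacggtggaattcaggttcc
Nupr1: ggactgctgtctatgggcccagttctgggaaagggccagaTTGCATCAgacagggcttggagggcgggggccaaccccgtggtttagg
Pycr1: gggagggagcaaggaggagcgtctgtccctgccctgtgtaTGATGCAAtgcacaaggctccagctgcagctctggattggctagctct
Chac1: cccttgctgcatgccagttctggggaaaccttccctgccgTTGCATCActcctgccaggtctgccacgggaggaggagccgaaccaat
Slc7a11: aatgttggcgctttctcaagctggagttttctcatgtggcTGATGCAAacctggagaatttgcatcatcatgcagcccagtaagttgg
Asns: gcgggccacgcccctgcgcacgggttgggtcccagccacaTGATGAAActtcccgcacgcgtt

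These stretches lie at chr7:45615582-45615669 (Fgf21, minus strand), chr7:126625533-126625620 (Nupr1, minus), chr11:120643804-120643891 (Pycr1, minus), chr2:119351009-119351096 (Chac1, plus), chr3:50443632-50443719 (Slc7a11, minus) and chr6:7693210-7693272 (Asns, minus). The match begins 139 bases before the start in Fgf21, 110 in Nupr1, 103 in Pycr1, 193 in Chac1, 66 in Slc7a11 and 23 in Asns. Slc7a11 holds another match, on the other strand, in the lower-case letters that follow. In Asns the letters are TGATGAAA, while the other 5 genes carry TGATGCAA or its reverse complement TTGCATCA.

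Of the other 13 genes called higher, Cdkn1a was the only member of the p53 target list among them. Cdkn1a encodes p21, an inhibitor of cell cycle kinases (chromosome 17, 29090976 to 29100727), and stood at 22.2, 17.9, 13.1, 12 and 16.1 CPM in wild type and at 42.7 to 78.2 (median 45.2) in mutants. It rose by 1.71 (SE 0.22, adjusted p = 0.00277), without overlap, and by 1.58 and 1.79 within the 2 shared title numbers. Of the 17 tested p53 targets it was the 1 called, and the median of the list was 0.50; Aen, Plk3 and Btg2 stood at 0.85, 1.13 and 0.99 with adjusted p of 0.187, 0.212 and 0.377.

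Clic4, a chloride intracellular channel protein, stood at 17.8, 32.6, 18.3, 13.4 and 22.5 CPM in wild type and at 39.5 to 91.5 (median 61.6) in mutants, and rose by 1.59 (SE 0.26, adjusted p = 0.0148). The highest wild-type value and the 2 highest mutant values were those of the 3 glia-rich libraries, and the call was lost without wild-type replicate 1 or 3 (adjusted p up to 0.0673). Cass4, an adhesion scaffold, stood at 0.585, 0, 0, 0 and 0 CPM in wild type and at 0.927 to 4.75 in mutants (2 against 307 counts, ratio 61.8, 95% interval 17 to 512; adjusted p = 0.023). Apobr, an apolipoprotein B receptor, stood at 0.11 to 0.292 CPM against 0.88 to 2.96 (ratio 11, 95% interval 5.7 to 24.3; adjusted p = 0.0129). All 3 kept their groups apart.

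Cox6a2, the heart and muscle isoform of a cytochrome c oxidase subunit, was the 1 called gene of the nuclear respiratory chain list. It stood at 0, 0.0592, 0.359, 0.659 and 0.494 CPM in wild type and at 1.88 to 5.05 (median 2.72) in mutants, 13 counts against 315 (ratio 9.75, 95% interval 5.62 to 18.5; adjusted p = 0.0253). The remaining genes rose by 1.03 to 2.53: Phf10 of a chromatin remodelling complex (1.60), the collagen receptor Ddr2 (1.92), Arl14ep (1.23), Trim66 (2.32), Rcc2 (1.03), Lhfpl2 (2.53) and the glycogen-binding Stbd1 (2.12), at adjusted p from 0.0232 to 0.0383. Lhfpl2 was at 3.2 CPM in glia-rich wild-type replicate 2 and at 0.292 to 0.719 in the other 4 wild-type libraries.

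These calls were fragile to single libraries. Among Cox6a2 and the 7 genes listed after it the call was lost in 5 of 11 omissions for Phf10 and Ddr2, 6 for Trim66, Arl14ep and Stbd1, 7 for Cox6a2, 8 for Rcc2 and 9 for Lhfpl2, with an adjusted p up to 0.138, and wild-type replicates 1 and 3 and mutant replicates 3 and 5 were among them each time. Cass4 lost its call in 5 omissions (mutant replicates 3 and 5, wild-type replicates 3, 4 and 5; adjusted p up to 0.0935) and Apobr in 1 (wild-type replicate 3, adjusted p = 0.0585). Over the 29 genes called higher, omitting wild-type replicate 3 ended 20 calls and omitting mutant replicate 3, mutant replicate 5 or wild-type replicate 1 ended 15 each.

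The gene model Gm8355, a processed pseudogene on chromosome 10, had the largest rise in median CPM of the 29 genes. It falls outside the naming rule and was chosen after its values were seen. It stood at 0, 4.68, 3, 4.61 and 0 CPM in wild type and at 47.6 to 302 (median 103) in mutants, highest in mutant replicate 3, with a difference of 5.54 (SE 0.72, adjusted p = 0.00277). Its sequence matches a transcript of Hspa8, a constitutive chaperone, at 1916 of 1941 aligned bases (98.7%). Hspa8 itself stood at medians of 2139 CPM in wild type and 1855 in mutants (difference -0.10, adjusted p = 0.835), so expected counts assigned to the pseudogene are uncertain where the quantification could split reads between this pair.

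The no-Cre precipitates give the background of these genes. In the 23-library scaling, 9 of the 29 genes called higher were apart with mutant Cre above mutant no-Cre (10.2% of all genes tested), namely Fgf21, Psph, Cdkn1a, Aldh18a1, Slc7a1, Cdsn, Adm2, Cass4 and Gm8355, and 0 were apart with wild-type Cre above wild-type no-Cre (13.8% of all genes tested). Psat1, for example, had medians of 27.1 and 28.8 CPM in wild-type and mutant no-Cre, 12.4 in wild-type Cre and 52.7 in mutant Cre. The genotype effect without Cre had the same sign for 15 of the 29. Genes called higher were picked for high mutant Cre and low wild-type Cre values. The counts with Cre above no-Cre are shaped by that selection and are not comparable with the shares of all genes.

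The difference between the genotype effects with and without Cre was called for 3 of 14468 genes (0.0207%), at 1524 genes with an unadjusted p under 0.05. Cdkn1a was 1.71 higher in mutants with Cre and 1.39 lower without (difference 3.10, SE 0.44, adjusted p = 0.00146), with no-Cre medians of 14.8 CPM in wild type and 6.41 in mutants. Clic4 was 1.59 higher with Cre and 0.33 lower without (difference 1.90, SE 0.35, adjusted p = 0.0437). Gm6984, a predicted model, had a difference of -12.91 (SE 2.21, adjusted p = 0.039). Without Cre it was 4.01 higher in mutants, and no separate effect with Cre was estimated for it. Slc7a1 (1.91, adjusted p = 0.0839) and Fam129a (3.08, adjusted p = 0.0831) came nearest among the other named genes. This count was 8 without wild-type Cre replicate 2 and 5 without wild-type no-Cre replicate 4. It was 1 without any 1 of wild-type Cre replicates 1, 4 and 5, mutant Cre replicates 3, 4 and 5, wild-type no-Cre replicates 1, 2, 5 and 6, and mutant no-Cre replicates 1, 4 and 5.

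The 12 genes called lower included surface proteins and a subunit of RNA polymerase III. Cd24a, a glycosylphosphatidylinositol-anchored surface glycoprotein of developing neurons (chromosome 10, 43578284 to 43584265), stood at 213, 103, 112, 97.5 and 133 CPM in wild type and at 17.7 to 48.6 (median 40.2) in mutants. It fell by 1.88 (SE 0.28, adjusted p = 0.00988), without overlap, and by 1.47 and 1.81 within the 2 shared title numbers. It was the 1 gene of the 12 called in all 11 omissions and with the title number as a replicate block (adjusted p = 0.0192).

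Polr3g, a subunit of RNA polymerase III, stood at 66.4, 17, 41.5, 37.3 and 29.1 CPM in wild type and at 7.42 to 15.4 (median 10.6) in mutants, and fell by 1.73 (SE 0.29, adjusted p = 0.019). Its paralog Polr3gl differed by -0.71 (adjusted p = 0.395), and Polr3g was the 1 called of 20 tested genes of that polymerase and its factors, with a median of -0.01.

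Lgals1, which encodes galectin-1 and was on the axon injury list, stood at 97.7, 39.1, 74.4, 60.9 and 61.4 CPM in wild type and at 11.5 to 32 (median 22) in mutants, and fell by 1.59 (SE 0.27, adjusted p = 0.0193). Ier3, on the immediate early list, fell by 1.66 (adjusted p = 0.0232), with wild-type replicate 2 at 10.1 CPM below the highest mutant at 11.8. Mest, an imprinted gene, stood at 425, 153, 200, 268 and 290 CPM against 94.5 to 139 and fell by 1.28 (adjusted p = 0.0232). The other falls were those of the scramblase family member Ano3 (-1.51), Tbc1d4 of glucose transporter traffic (-1.16), Phyhip (-1.15), the calcium release channel Itpr3 (-1.03), Ankrd34a (-1.01) and the sialomucin Cd164 (-0.98), at adjusted p from 0.0148 to 0.0476.

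Wild-type replicate 1 was the highest wild-type library for 11 of the 12 genes, and it also had the smallest scaled library size (3.42 M counts, against 6.08 to 16.9 M in the other wild-type libraries and 10.8 to 22.9 M in mutants). Without it 2 of the 12 were called, and without wild-type replicates 2, 3, 4 and 5, 12, 1, 6 and 4 were. Without mutant replicates 1 to 6, 5, 6, 6, 5, 3 and 8 were. With the glial covariate 7 were called, and with library totals alone the 12 differences lay between -0.91 (Cd24a) and -0.09. The part of library composition in these falls was not tested. In 10 of the 12, all but Ano3 and Ankrd34a, wild-type Cre was above wild-type no-Cre without overlap (13.8% of all genes tested). The 12 were picked for high values in these same wild-type Cre libraries, so their share is not comparable with that of all genes.

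**Figure D3:**
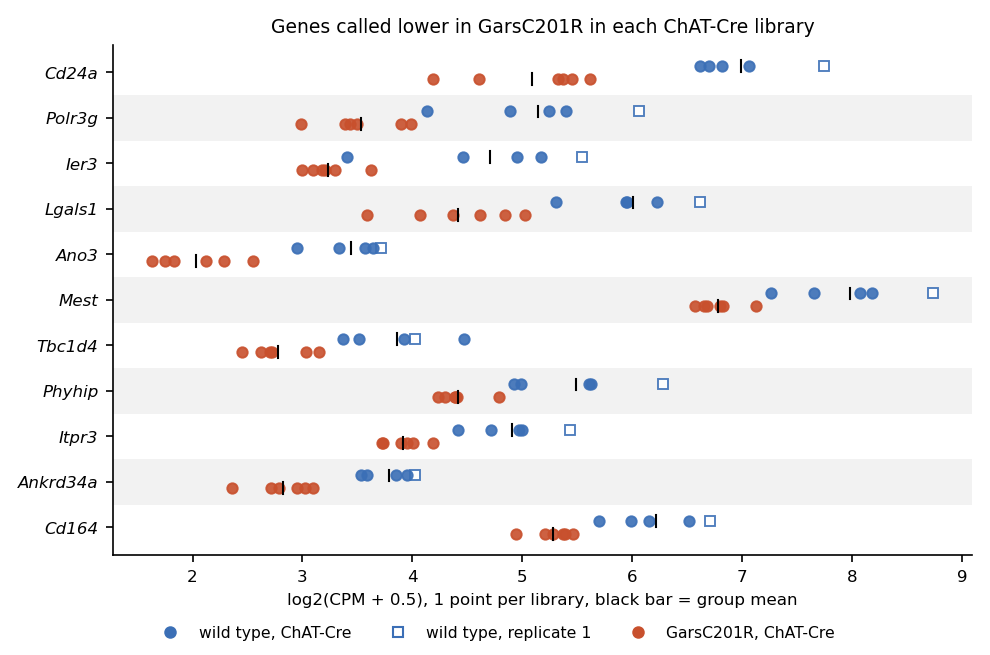
Values of 11 of the 12 genes called lower, as log2(CPM + 0.5) on the x axis, with 1 point for each of the 5 wild-type and 6 mutant Cre libraries, the group mean as a black bar and wild-type replicate 1 as an open square. Wild-type replicate 1 is the highest library for 10 of the 11 genes drawn, and the groups overlap for Ier3 (10.1 CPM in wild-type replicate 2, 11.8 in the highest mutant).

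Regulators upstream of the stress genes were not called in the test of all 11 libraries. Of 14 tested eIF2alpha kinases, eIF2 subunits and exchange factor subunits, 0 passed (1 at an unadjusted p under 0.05, median -0.07), and of 15 ribosome stalling and rescue factors 0 passed (2 at an unadjusted p under 0.05, median 0.01). Among these Eif2b4 stood at -0.75 (adjusted p = 0.269), the PERK gene Eif2ak3 at 0.34 (0.508), Ascc2 at 0.79 (0.165) and the stalling kinase gene Zak at 0.78 (0.275). The 20 cytosolic tRNA synthetases, with Gars among them, had a median of 0.16 and 0 called; Iars, Mars, Wars and Rars were at 0.79, 0.61, 0.55 and 0.55 (adjusted p from 0.1 to 0.243), and Hars was at -0.49. The 16 tested mitochondrial synthetases had a median of -0.19 and 0 called; their list holds Lars2, a ribosomal RNA-like model in these data. In the fit without the 3 glia-rich libraries the eIF2alpha list had 1 member called lower, the stalling list 1 higher and 2 lower, cytosolic synthetases 2 higher and 1 lower, and mitochondrial synthetases 1 lower. That fit called 4.43% of all genes higher and 6.45% lower.

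Other stress lists also lay near the median of all genes. Endoplasmic reticulum chaperones had 0 of 18 called and a median of 0.09, with Dnajb9 apart at 0.70 (adjusted p = 0.117). The mitochondrial unfolded protein response had 0 of 11 called (median 0.02) and heat shock genes 0 of 13 (median -0.01), among which the co-chaperone Bag3 stood at -1.34 (adjusted p = 0.0856) and Hsph1 at 0.60 (adjusted p = 0.222). The heat shock list's highest difference was that of Serpinh1, a collagen chaperone, at 2.31 (adjusted p = 0.276), with its highest mutant values, 14.3 and 36.9 CPM, in the glia-rich replicates 4 and 6; without the 3 glia-rich libraries it was 0.18 (adjusted p = 0.898). Cholesterol synthesis had 0 of 15 called (median -0.08), and neuropilin, VEGF and neurotrophin genes 0 of 14 (median 0.21, Vegfa the 1 apart). At an unadjusted p under 0.05 these 5 lists had 3, 1, 5, 2 and 2 members. With the 3 glia-rich libraries left out they had 1, 1, 1, 0 and 1 called higher and 1, 0, 1, 3 and 0 called lower, against 4.43% and 6.45% of all genes.

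Motor neuron and cholinergic genes had 0 of 19 called, with 3 of 19 differences positive and a median of -0.59. Chat stood at 101, 52.7, 81.6, 74.3 and 94.8 CPM in wild type and at 20.6 to 73.2 (median 50.8) in mutants, with overlap and a difference of -0.75 (SE 0.28, adjusted p = 0.22). Without the 3 glia-rich libraries the difference of Chat was -0.58, and it was called lower (adjusted p = 0.0385). The list mean, as log2(CPM + 1), was 5.40, 4.69, 5.22, 5.19 and 5.18 in wild-type replicates 1 to 5 and 4.69, 5.03, 5.05, 4.15, 4.83 and 3.60 in mutant replicates 1 to 6. The lowest 2 were the glia-rich mutant replicates 4 and 6, and glia-rich wild-type replicate 2 was the lowest of its group. The peptide gene Calcb stood at -1.23 and Sncg at -1.25 (adjusted p = 0.0633 and 0.141), and Spp1, a marker of alpha motor neurons, was apart at -1.09 (adjusted p = 0.0939). Without the 3 glia-rich libraries the median was -0.53, with 8 members called lower and 1 higher, against 6.45% and 4.43% of all genes in that setting. Without wild-type replicate 2 alone, 4 members were called lower, against 5.06% of all genes.

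Axonal and synaptic genes were not called in the test of all 11 libraries. Neurofilament and cytoskeleton genes had 0 of 18 called and a median of -0.31, with Nefm at -1.11 (adjusted p = 0.141) and Nefh at -0.69 (adjusted p = 0.27). Kinesin, dynein and dynactin subunits had 0 of 20 called and a median of -0.13, with Dynll2 at -0.95 (adjusted p = 0.11) and Dctn1 at -0.92 (adjusted p = 0.126). Synaptic vesicle release genes and motor neuron subtype markers had medians of -0.13 each and 0 called. At an unadjusted p under 0.05 the neurofilament and kinesin lists had 6 and 5 members, all lower. Without the 3 glia-rich libraries 5 neurofilament and cytoskeleton genes and 4 kinesin and dynein genes were called lower (6.45% of all genes). Without wild-type replicate 2 alone 4 and 3 were (5.06% of all genes). Of synaptic vesicle genes 3 were called higher without the 3 glia-rich libraries, and of motor neuron subtype markers 4 lower and 1 higher. That setting called 4.43% of all genes higher and 6.45% lower.

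Ribosomal protein and respiratory chain genes mostly had negative differences, few of which passed the test. Of 78 ribosomal protein genes 7 had a positive difference, with a median of -0.34, 1 was called lower and 23 had a negative difference at an unadjusted p under 0.05. Of 57 nuclear respiratory chain genes 6 had a positive difference, with a median of -0.35, 0 were called lower and 20 had a negative difference at an unadjusted p under 0.05. Rps20, Rpl35a, Ndufa12 and Ndufa5 stood at -0.89, -1.03, -0.86 and -1.17 (adjusted p from 0.11 to 0.132). Without wild-type replicate 2, 15 ribosomal protein genes and 20 respiratory chain genes were called lower, with medians of -0.47 and -0.43, against 5.06% of all genes. Without the 3 glia-rich libraries 36 and 24 were, against 6.45% of all genes. With library totals alone the medians became 0.53 and 0.54, below the median of all genes (0.79), so that the direction relative to other genes was kept and the sign was not.

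Markers of other cell types had positive medians and 0 calls in the test of all 11 libraries. The medians were 1.61 for oligodendrocytes (14 of 14 positive), 1.31 for their precursors, 0.99 for astrocytes, 2.65 for the 6 of 14 microglia markers that passed the filter, 1.55 for endothelial cells and pericytes, 1.94 for meningeal fibroblasts, 1.86 for Schwann cells and 1.65 for erythroid genes. Mutant replicates 4 and 6 were the highest libraries in these lists, except in the erythroid one, where mutant replicate 1 was above replicate 4. Without these and wild-type replicate 2 the medians were 0.90, 0.74, 0.09, 0.91, 1.36, -0.14, -1.28 and 1.04 in the same order, over the members that still passed the filter. Mutant replicate 1 stayed in that setting. Its mean log2(CPM + 1) was above that of wild-type replicate 2 for microglia (1.75 against 1.09) and endothelial and pericyte markers (3.36 against 3.04). In that setting 4 oligodendrocyte, 1 precursor, 2 astrocyte and 1 endothelial or pericyte markers were called higher and 1 astrocyte marker lower. Of all genes 4.43% were called higher there and 6.45% lower. Without wild-type replicate 2 alone 5 oligodendrocyte, 1 precursor, 2 astrocyte, 1 microglia and 2 endothelial or pericyte markers were called higher, against 3.38% of all genes. Inhibitory and excitatory neuron markers had medians of 0.53 and 0.80 and 0 called, and without the 3 glia-rich libraries 1 inhibitory marker was called higher and 1 excitatory marker lower. The part of other cells in the negative differences of motor neuron genes was not tested.

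**Figure D4:**
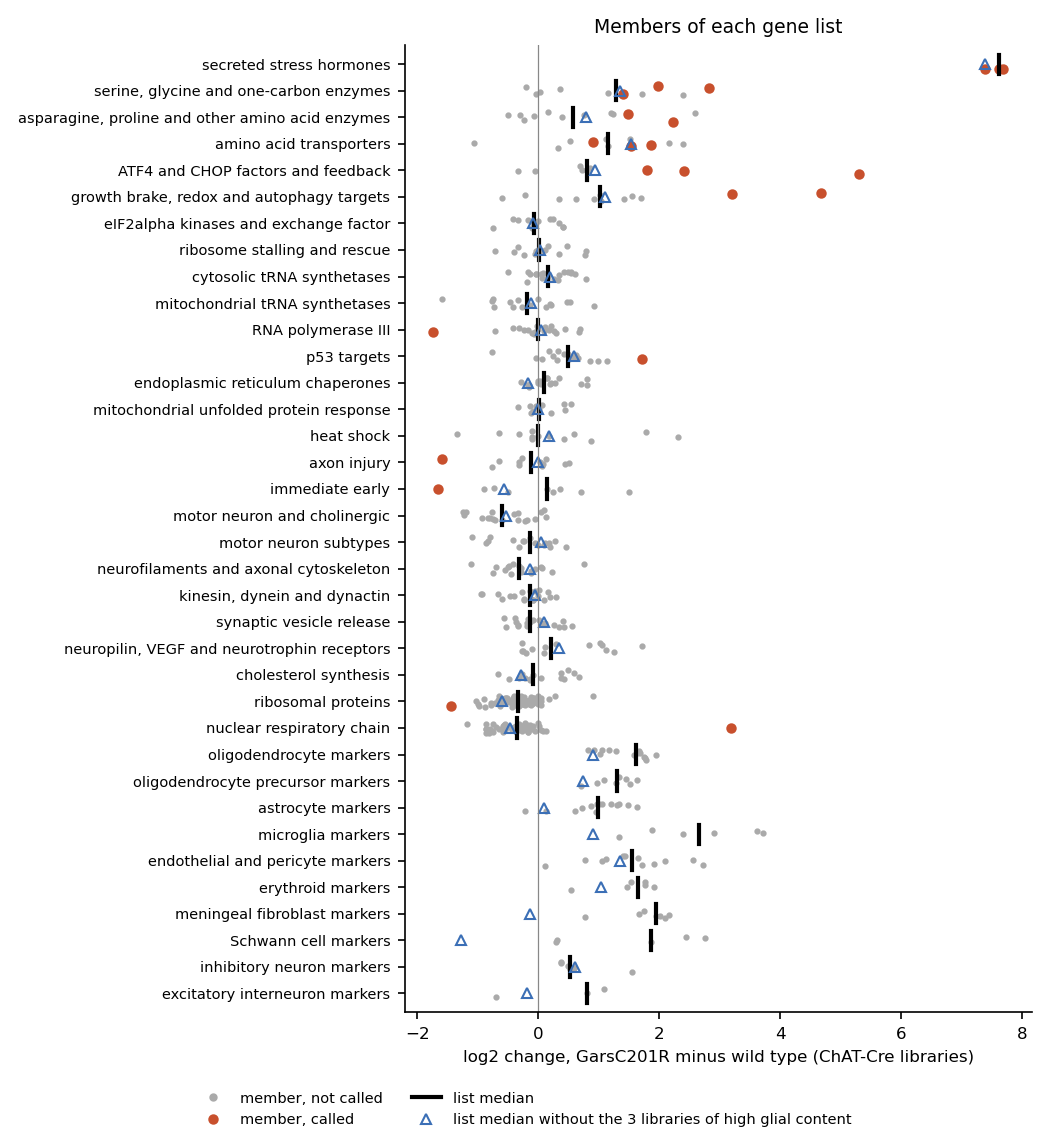
Log2 differences (x axis, mutant minus wild type) of the tested members of each gene list, with the list's median as a black bar and the median without the 3 glia-rich libraries as a blue triangle. The median is 7.62 for the 3 hormones, 0.57 to 1.28 for the other 5 stress lists and -0.59 for motor neuron and cholinergic genes. Gdf15 and Adm2 had 0 counts in wild type, so the size of the hormone median depends on the method. It was 6.18 with DESeq2 and 4.83 with limma-voom.

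**Figure D5:**
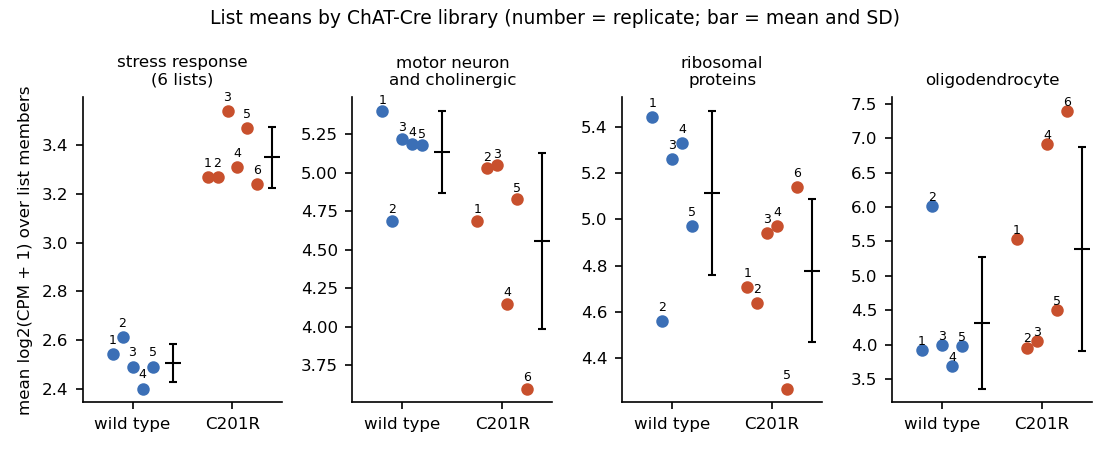
Mean log2(CPM + 1) of 4 gene lists in each Cre library, numbered by replicate, with the group mean and SD. Stress response means are 2.40 to 2.61 in wild type and 3.24 to 3.54 in mutants without overlap, while oligodendrocyte means reach 6.02 in wild-type replicate 2 and 7.39 in mutant replicate 6.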

How the data were processed

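Anti-haemagglutinin precipitates of RiboTag spinal cord were sequenced in 23 libraries, 11 of them with ChAT-Cre. Reads were processed with Bowtie2 2.2.0 and RSEM 1.2.12, per the submitters' processing notes; the genome build is not given in the sources used here. The deposited expected counts are estimated reads per gene, not scaled for depth, and the deposited TPM values are per length. Of 38924 gene IDs, 37607 matched GENCODE M21 (GRCm38) by identifier, which gave positions.

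Expected counts were rounded and tested with edgeR 4.0.16 in R 4.3.3 (filterByExpr with a minimum count of 10 and total of 15, TMM, quasi-likelihood test, Benjamini-Hochberg threshold 0.05 over all genes tested), checked on simulated data. The 11 Cre libraries entered the genotype fit, and all 23 the difference of effects. Replicate numbers follow accession order. Alternatives used RLE or no scaling factors, other filters, DESeq2 1.42.0, limma 3.58.1 voom, covariates, the title number as a block, and omissions.

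Named were Gars, Chat, Rpl22, Fgf21, Psph, Psat1 and Nupr1, every called gene except predicted models, and up to 6 members of each of 36 lists (594 symbols, 590 in the files) with the smallest p. 1 called gene and 1 list member are not reported here. The members and lists were chosen with earlier results of these data known. Counts of reads limit precision, and intervals cover counting error only.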

Additional observations from a re-analysis of the deposited data

Results flagged for a closer look

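Among 92 groups of 5 or 6 libraries examined, 7 held 1 library far from the others, where chance gives about 1 in 20. Wild-type Cre replicate 2 stood apart in the mean log2(CPM + 1) of oligodendrocyte markers (6.02) and astrocyte markers (4.51), and in Aldh18a1 (7.34 CPM) and Lhfpl2 (3.2 CPM). Wild-type Cre replicate 1 stood apart in Cass4 (0.585 CPM, with 0 in the other 4). Mutant Cre replicate 3 stood apart in Phyhip (27.1 CPM) and mutant Cre replicate 5 in Trim66 (24.8 CPM).

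The genotype effect differed between precipitates with and without Cre for Cdkn1a (log2 difference of the effects 3.10), Clic4 (1.90) and Gm6984 (-12.91), each by the interaction test. For Gm6984 no separate effect with Cre was estimated. In the no-Cre data Gdf15 had 82 counts in mutant replicate 4, against 0 in the other 5 mutant no-Cre libraries and at most 1 in a wild-type no-Cre library. With all 23 libraries scaled together it stood at 17.7 CPM there, against 0.439 to 1.84 CPM in mutant Cre libraries.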

How the results depend on the processing

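The 41 called genes kept their sign in all fits that tested them; over all settings 756 of their values stayed past the threshold and 297 did not. The number of genes called was 17 with library totals only, 89 without a filter, 413 with DESeq2, 862 with limma-voom, 19 with the title number as a replicate block, 11 with all 23 libraries in one fit, and 10 to 1057 when 1 library was left out. With 2 settings chosen after seeing the data it was 1285 without title number 18405 and wild-type replicate 2, and 24 in the 8 libraries of shared title numbers with no block. Stress response members called were 16 in the main test, 10 with totals only, 30 with DESeq2, 35 with limma-voom, 7 with all 23 libraries, 36 without the glia-rich libraries, 12 with the replicate block, and 7 to 31 when 1 library was left out. The difference of effects gave 1 gene with totals only, 9 without a filter, 42 with DESeq2, 169 with limma-voom, and 1 to 8 when 1 library was left out. RLE factors, leaving out ribosomal RNA-like genes, a filter at 5 CPM, robust estimation, the sex-linked covariate, the glial covariate and leaving out title number 18405 kept the first count between 34 and 60. Splits between higher and lower calls were 29 and 12 in the main test, 17 and 0 with totals only, 122 and 291 with DESeq2, 258 and 604 with limma-voom and 523 and 762 without the glia-rich libraries. The block kept the 8 libraries of title numbers 20302 and 20401. Deviations from the group means correlated at -0.47 to 0.20 (median 0.01) between wild-type and mutant libraries of the same title number and at -0.27 to 0.29 (median 0.00) between others, so the numbers were not used as pairs. Depth outside ribosomal RNA (as low as 1.21 M counts) limits the precision for genes of low expression; whether depth kept Atf3 and Trib3 below the filter was not tested.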
